A study of Mus musculus with 8 samples.

Results

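The *Dlx* and GABAergic genes of the embryonic brain were followed through a maternal choline experiment. They comprise the *Dlx* genes of the ventral forebrain with one of their antisense RNAs, a pair of factors that pattern the same progenitors, and the genes that make and package the transmitter GABA. The 10 genes are *Dlx1*, *Dlx2*, *Dlx5*, *Dlx6*, *Dlx6os1*, *Gsx2*, *Nkx2-1*, *Gad1*, *Gad2* and *Slc32a1*. They were picked by gene name, with no threshold on their values but with earlier results of these data known, and all 10 were found among the 33971 genes of the count table. All 10 had enough reads to stay among the 19367 genes tested. RNA came from whole brains of wild-type mouse embryos at E14.5, from wild-type females mated to wild-type males. The dams ate normal chow (normal diet, ND, 4 embryo brains) or a choline-deficient diet (CDD, 4 embryo brains). The series' design and the methods start the diets on the mating day, whereas one supplementary legend places the start before mating. The labels name neither dams, litters nor the sex of embryos, so the p-values below measure the spread between these 8 brains, some of which may share a mother.

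The gene counts of a brain added up to between 31770217 and 43121170. Each of the 10 genes received between 135 and 6844 of them in a brain. A brain's level is given as CPM, which puts counts on a common library size, and a diet difference as the log2 fold change of CDD over ND with its standard error (SE). Between the diets, edgeR called 1710 of the 19367 tested genes at an adjusted p under 0.05, or 8.83%, with 4.24% higher and 4.59% lower on CDD. The CPM of the 4 CDD brains and the 4 ND brains did not overlap for 15.0% of tested genes. One library stood apart. CDD replicate 2 held 1142 counts of *Hoxa5*, a gene of the caudal hindbrain and spinal cord, and the other 7 brains held 0. Such *Hox* genes, 6 in all, summed to 91.9 CPM there and to at most 0.392 CPM in any other brain. The diet comparison of each of the 10 genes is therefore given with and without that brain, and of the called genes named from other lists it is said which lost the call without it. Markers of postmitotic neurons summed to between 6416 and 7245 CPM in CDD brains and between 6564 and 6784 CPM in ND brains. Markers of neural progenitors summed to 1998 to 2320 CPM on CDD and 1775 to 1889 CPM on ND, with no overlap.

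In the embryonic brain, most GABAergic neurons of the forebrain arise in the ganglionic eminences, the ventral swellings of the telencephalon, and many migrate from there into the cortex. *Gsx2* acts in progenitors, mainly of the lateral eminence, and *Nkx2-1* defines the medial eminence and also marks parts of the hypothalamus. The *Dlx* homeobox genes act downstream, as linked pairs, with *Dlx1* and *Dlx2* switched on in progenitors ahead of *Dlx5* and *Dlx6*. *Gad1* and *Gad2* encode the enzymes GAD67 and GAD65, which make GABA from glutamate, and *Slc32a1* encodes the carrier VGAT, which loads it into synaptic vesicles. These 3 genes are used by inhibitory neurons throughout the brain, not by forebrain cells alone. In bulk tissue, fewer cells of a type and less RNA per cell cannot be told apart.

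The stretches of 250 bases in front of the start sites were taken from RefSeq (GRCm38.p6), where 8 of the 10 genes matched with 9 start sites, all genes but *Dlx5* and *Dlx6*. They are shown for *Nkx2-1*, *Gad2* and *Slc32a1*, the genes that passed the test between the diets, for *Gad1* as the counterpart of *Gad2*, and for the start site of *Dlx6os1* with the most matches to the letters searched. The letters searched on both strands were TAATTA, the core that homeodomain factors such as the DLX proteins bind, CAAGTG, known as a core of NKX2-1 sites, and CAGCTG, an E-box. TAATTA and CAGCTG read the same on both strands, so each is found once. Capitals mark the matches, and each line runs 5′ to 3′ on the gene's strand.
Nkx2-1, chr12:56536909-56537158, minus strand: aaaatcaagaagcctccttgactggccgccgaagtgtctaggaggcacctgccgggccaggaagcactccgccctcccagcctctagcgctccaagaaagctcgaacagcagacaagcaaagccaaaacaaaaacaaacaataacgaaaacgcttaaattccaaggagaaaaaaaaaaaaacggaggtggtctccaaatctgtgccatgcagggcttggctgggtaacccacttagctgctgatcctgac
Gad1, chr2:70561879-70562128, plus strand: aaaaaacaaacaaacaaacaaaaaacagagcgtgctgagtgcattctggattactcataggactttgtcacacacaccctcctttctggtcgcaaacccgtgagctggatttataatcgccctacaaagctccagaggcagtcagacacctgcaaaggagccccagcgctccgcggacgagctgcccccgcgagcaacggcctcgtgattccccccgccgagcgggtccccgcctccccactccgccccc
Gad2, chr2:22622077-22622326, plus strand: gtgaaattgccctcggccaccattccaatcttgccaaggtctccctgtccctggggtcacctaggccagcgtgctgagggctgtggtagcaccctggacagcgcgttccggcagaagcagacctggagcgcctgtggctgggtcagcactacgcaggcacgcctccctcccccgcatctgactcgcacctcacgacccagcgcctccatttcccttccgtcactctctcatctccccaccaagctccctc
Slc32a1, chr2:158610508-158610757, plus strand: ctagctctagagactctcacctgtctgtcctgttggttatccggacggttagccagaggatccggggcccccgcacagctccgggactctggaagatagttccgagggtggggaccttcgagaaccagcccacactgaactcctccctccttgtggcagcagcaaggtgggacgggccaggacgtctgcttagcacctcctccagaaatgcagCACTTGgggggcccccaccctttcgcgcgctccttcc
Dlx6os1, chr6:6869534-6869783, minus strand: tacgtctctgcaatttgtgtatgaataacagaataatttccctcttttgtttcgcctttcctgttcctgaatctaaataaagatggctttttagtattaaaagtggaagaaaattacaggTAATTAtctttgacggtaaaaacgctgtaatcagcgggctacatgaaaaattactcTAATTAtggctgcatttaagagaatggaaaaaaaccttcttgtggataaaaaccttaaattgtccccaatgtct

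The window of *Slc32a1* held 1 CAAGTG, read as CACTTG and beginning at position -37 from the start site. The printed window of *Dlx6os1* held 2 TAATTA, and that of its other start site held 1. None of the 3 motifs was found in the windows of *Dlx1*, *Dlx2*, *Gsx2*, *Nkx2-1*, *Gad1* or *Gad2*, which says only that these letters are not in these bases. Of 32851 mouse promoter windows of the same length, 4.84% held TAATTA, 11.6% held CAAGTG and 13.0% held CAGCTG. The printed *Dlx6os1* window had a GC content of 33.2% with 5 CpG, whereas the windows of *Gad1*, *Gad2* and *Slc32a1* had 58.0%, 64.0% and 62.4% with 17, 13 and 12 CpG. That of *Nkx2-1* had 50.8% with 9 CpG. The median of all windows was 52.4% and 6 CpG.

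Of the 10 genes, 3 passed the test. *Nkx2-1* rose by 17.8%, *Gad2* rose by 11.7% and *Slc32a1* fell by 12.4% on CDD (percentages from the fitted fold changes). The other 7 did not pass, *Gsx2* and *Gad1* being nearest to the threshold. Counted, 3 of 10 (30%) passed beside 8.83% of all tested genes, 2 of them higher beside 4.24% and 1 lower beside 4.59%. Without CDD replicate 1, 1 was called, and without ND replicate 1, 3 or 4, 0 were (edgeR). At an unadjusted p under 0.05, 6 of the 10 and 4627 of all tested genes stood in the full comparison, and DESeq2 called the same 3. The median log2 fold change of the 10 was 0.06, beside -0.00 for all tested genes, with 6 genes above 0 and 4 below.

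**Figure D1:**
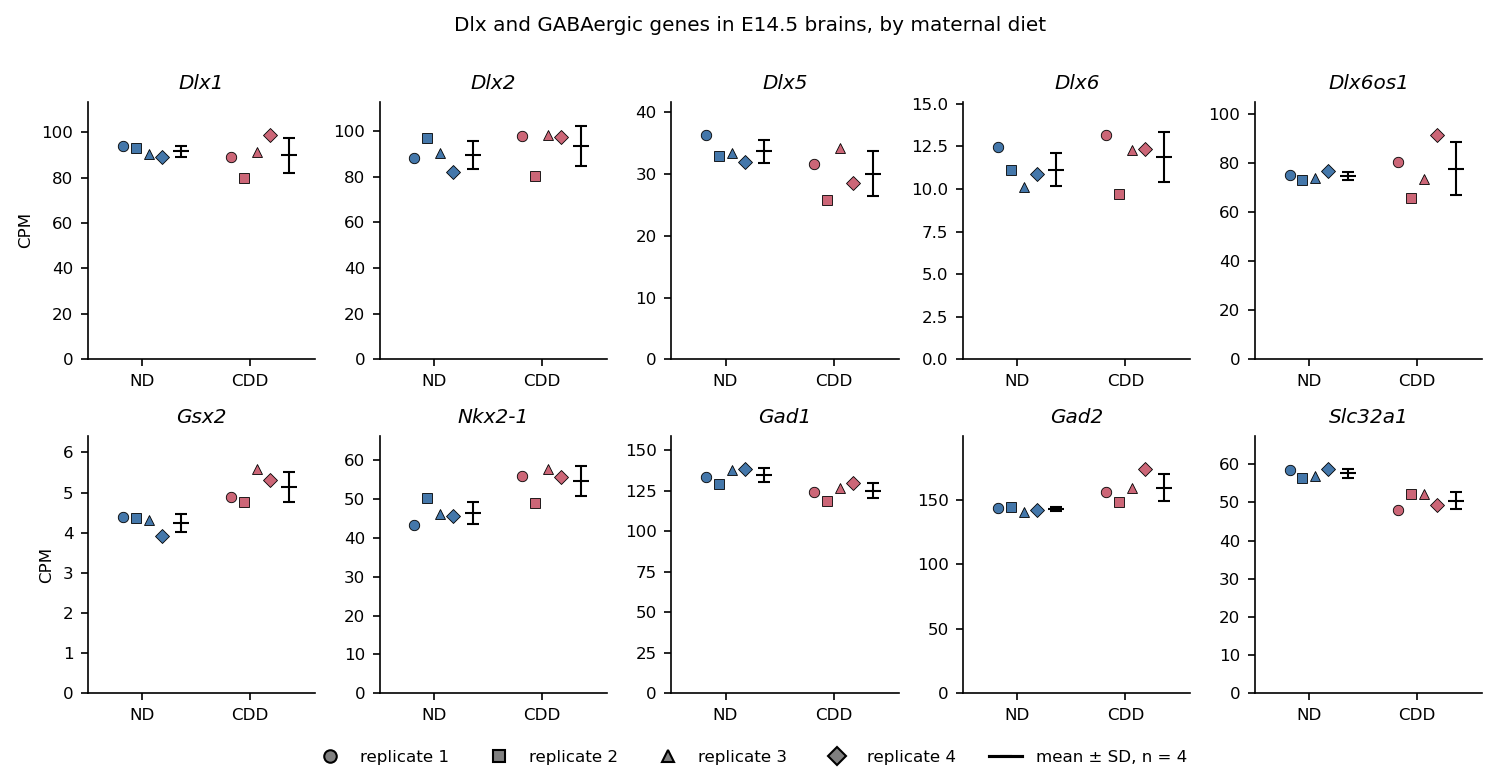
Level of each of the 10 genes in CPM (vertical axis, starting at 0) in the 4 ND and the 4 CDD brains, with 1 point per brain, a symbol per replicate number and the mean ± SD of each diet. The points of the diets are separate for Gsx2, Gad2 and Slc32a1, and the square of CDD replicate 2 is the lowest CDD point in 9 of the 10 panels.

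Among the patterning factors, *Nkx2-1* (ENSMUSG00000001496, chromosome 12, 56578743 to 56583693, minus strand, as the authors list it on a build that is not named) measured 55.9, 48.8, 57.5 and 55.7 CPM in CDD replicates 1 to 4. In ND replicates 1 to 4 it measured 43.4, 50.2, 46.0 and 45.6 CPM. CDD replicate 2 lay below ND replicate 2, and the other CDD brains lay above every ND brain. The means were 54.5 ± 3.86 CPM on CDD and 46.3 ± 2.85 CPM on ND (SD, n = 4 each). The log2 fold change was 0.24 (SE 0.059, 95% interval 0.11 to 0.36), with an edgeR adjusted p of 0.0184. Without CDD replicate 2 it was 0.29, with an edgeR adjusted p of 0.00664. The call was lost when ND replicate 1, 3 or 4 was left out (edgeR adjusted p of 0.0838, 0.0719 and 0.0687), and over all 8 brains left out in turn the log2 fold change ran from 0.21 to 0.29.

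*Gsx2* (ENSMUSG00000035946, chromosome 5, 75236262 to 75238554, plus strand) was the least abundant of the 10, with 135 to 240 counts in a brain. It measured 4.89, 4.75, 5.58 and 5.31 CPM in CDD replicates 1 to 4 and 4.39, 4.38, 4.31 and 3.91 CPM in ND replicates 1 to 4. No CDD brain fell to the level of any ND brain, though the margin was narrow. The means were 5.13 ± 0.379 and 4.25 ± 0.225 CPM (SD, n = 4 each). Its log2 fold change of 0.28 (SE 0.11, 95% interval 0.04 to 0.51) was the widest in error and did not pass (edgeR adjusted p = 0.132), nor did it without CDD replicate 2 (0.31, edgeR adjusted p = 0.118). The summed progenitor markers, which were also higher in every CDD brain than in every ND brain, moved in the same direction as *Nkx2-1* and *Gsx2*, and their part in these values was not tested.

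None of the 4 *Dlx* transcription factor genes passed the test. *Dlx1* (ENSMUSG00000041911, chromosome 2, 71358457 to 71364325, plus strand) and *Dlx2* (ENSMUSG00000023391, chromosome 2, 71373752 to 71377098, minus strand) lie next to each other in opposite orientation. *Dlx1* measured 89.3, 79.9, 91.0 and 98.7 CPM in CDD replicates 1 to 4 and 93.8, 93.0, 90.3 and 89.0 CPM in ND replicates 1 to 4. The ND brains sat within the range of the CDD brains, the lowest and the highest of all 8 being CDD replicates 2 and 4. The log2 fold change of *Dlx1* was -0.03 (95% interval -0.14 to 0.08, edgeR adjusted p = 0.798), and without CDD replicate 2 it was 0.02. *Dlx2* measured 97.7, 80.4, 98.2 and 97.2 CPM on CDD and 88.2, 96.9, 90.4 and 81.9 CPM on ND, in the same order of replicates. CDD replicate 2 lay below all ND brains and the other CDD brains lay above them. The log2 fold change of *Dlx2* was 0.06 (95% interval -0.07 to 0.20, edgeR adjusted p = 0.600), and without that brain 0.13 (edgeR adjusted p = 0.145).

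*Dlx5* (ENSMUSG00000029755, chromosome 6, 6877805 to 6882085, minus strand) measured 31.6, 25.8, 34.2 and 28.6 CPM in CDD replicates 1 to 4. In ND replicates 1 to 4 it measured 36.3, 32.98, 33.5 and 31.9 CPM. CDD replicate 3 lay among the ND brains, and the other CDD brains lay below all of them. The means were 30.0 ± 3.63 and 33.7 ± 1.86 CPM (SD, n = 4 each). The log2 fold change of -0.16 (SE 0.075, 95% interval -0.32 to -0.01) did not pass, with an edgeR adjusted p of 0.190. It passed once CDD replicate 3 was left out (-0.23, edgeR adjusted p = 0.0400) and was -0.10 (edgeR adjusted p = 0.450) without CDD replicate 2.

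*Dlx6* (ENSMUSG00000029754, chromosome 6, 6863334 to 6868568, plus strand), the neighbour of *Dlx5*, measured 13.2, 9.74, 12.3 and 12.3 CPM in CDD replicates 1 to 4 and 12.5, 11.1, 10.1 and 10.9 CPM in ND replicates 1 to 4. The diets overlapped, with the lowest and the highest of the 8 both on CDD. Its log2 fold change was 0.09 (95% interval -0.11 to 0.29, edgeR adjusted p = 0.606), and 0.18 without CDD replicate 2 (edgeR adjusted p = 0.249). *Dlx6os1* (ENSMUSG00000090063, chromosome 6, 6749740 to 6871632, minus strand), also known as *Evf2*, is a long noncoding RNA that runs antisense through *Dlx6*. It measured 80.5, 65.5, 73.5 and 91.3 CPM on CDD and 75.2, 73.0, 73.8 and 76.6 CPM on ND, in order of replicates. The CDD brains spread more widely (SD 10.9 CPM) than the ND brains (SD 1.59 CPM) around similar means of 77.7 and 74.6 CPM. The log2 fold change of *Dlx6os1* was 0.06 (95% interval -0.12 to 0.23, edgeR adjusted p = 0.730), 0.13 without CDD replicate 2 and -0.03 without CDD replicate 4, so its direction rested on single brains. Of the remaining relatives, *Dlx1as*, the antisense RNA at *Dlx1*, measured 31.0 ± 4.97 CPM on CDD and 33.3 ± 1.38 CPM on ND (log2 fold change -0.10, edgeR adjusted p = 0.563). *Dlx3* had 1 to 7 counts and *Dlx4* 0 to 2 counts in a brain, too few to test.

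The 2 genes for GABA-making enzymes had fold changes of opposite sign, and *Gad2* passed the test. *Gad2* (ENSMUSG00000026787, chromosome 2, 22512217 to 22583886, plus strand) measured 156, 148, 159 and 174 CPM in CDD replicates 1 to 4 and 144, 144, 141 and 142 CPM in ND replicates 1 to 4. All CDD brains exceeded the ND brains, and they were spread far more widely. The means were 159 ± 10.5 and 143 ± 1.51 CPM (SD, n = 4 each). *Gad2* rose by 0.16 on the log2 scale (SE 0.046, 95% interval 0.06 to 0.25, edgeR adjusted p = 0.0357), and by 0.19 without CDD replicate 2 (edgeR adjusted p = 0.0218). That call was the least stable of the 3. It held in 2 of the 8 fits that left out a brain, those without CDD replicate 2 or 3, with a log2 fold change between 0.11 and 0.19 over all 8 and a highest edgeR adjusted p of 0.143 without ND replicate 3.

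*Gad1* (ENSMUSG00000070880, chromosome 2, 70383416 to 70432358, plus strand) measured 125, 119, 127 and 129.8 CPM in CDD replicates 1 to 4. In ND replicates 1 to 4 it measured 133, 129.3, 138 and 138 CPM. All CDD brains lay below the lowest ND brain except CDD replicate 4, which exceeded ND replicate 2 by less than 1 CPM. The log2 fold change was -0.11 (SE 0.041, 95% interval -0.19 to -0.02) and did not pass (edgeR adjusted p = 0.106). It passed without CDD replicate 4 (-0.13, edgeR adjusted p = 0.0346) and was -0.08 without CDD replicate 2 (edgeR adjusted p = 0.276).

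*Slc32a1* (ENSMUSG00000037771, chromosome 2, 158452687 to 158457668, plus strand), the gene of the vesicular carrier, measured 48.0, 52.3, 52.3 and 49.3 CPM in CDD replicates 1 to 4. In ND replicates 1 to 4 it measured 58.6, 56.4, 56.9 and 58.6 CPM. Every CDD brain lay below every ND brain, and CDD replicate 2 was not the lowest here. The means were 50.5 ± 2.19 and 57.6 ± 1.14 CPM (SD, n = 4 each). *Slc32a1* fell by 0.19 on the log2 scale (SE 0.048, 95% interval -0.29 to -0.09, edgeR adjusted p = 0.0183), and by 0.21 without CDD replicate 2 (edgeR adjusted p = 0.0232). The call was lost without CDD replicate 1 or ND replicate 1, 3 or 4 (highest edgeR adjusted p = 0.0761). The levels of *Gsx2*, *Gad2* and *Slc32a1*, 3 of the 10 genes (30%), thus did not overlap between the diets, beside 15.0% of all tested genes.

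**Figure D2:**
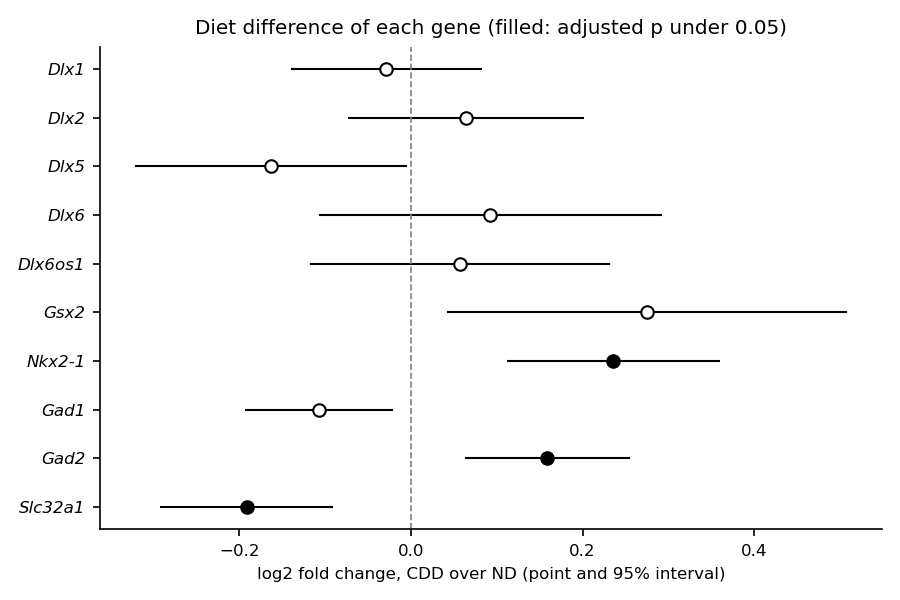
Log2 fold change of CDD over ND (horizontal axis) for each of the 10 genes, with its 95% interval as a line, filled where the edgeR adjusted p was under 0.05. Filled points are Nkx2-1 and Gad2, to the right of 0, and Slc32a1, to the left, and the intervals of Dlx1, Dlx2, Dlx6 and Dlx6os1 span 0.

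Since some of these genes work as pairs, 6 ratios between them were formed inside each brain from counts per gene length, which needs no scaling between libraries. The ratio of *Gad1* to *Gad2* was 0.614, 0.616, 0.612 and 0.575 in CDD replicates 1 to 4 and 0.714, 0.690, 0.751 and 0.749 in ND replicates 1 to 4. It was lower in every CDD brain, by 0.26 on the log2 scale between the means (exact two-sided permutation p = 0.0286, adjusted over the 6 ratios 0.0571). The ratio of *Slc32a1* to the sum of both *Gad* genes was 0.400, 0.458, 0.428 and 0.378 on CDD and 0.499, 0.487, 0.485 and 0.497 on ND. It too was lower in every CDD brain, with means of 0.416 ± 0.0346 and 0.492 ± 0.00726 (SD, n = 4 each) and the same exact permutation p of 0.0286, adjusted 0.0571. *Dlx5* to *Dlx6* gave 2.52, 2.78, 2.92 and 2.43 on CDD and 3.06, 3.12, 3.48 and 3.08 on ND, again without overlap and with an exact permutation p of 0.0286, adjusted 0.0571. With 4 brains against 4, 0.0286 is the smallest p this test can give, and none of the 6 ratios passed after adjustment.

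The other 3 ratios overlapped between the diets. *Dlx1* to *Dlx2* was 0.509 ± 0.0263 on CDD and 0.544 ± 0.0309 on ND (SD, n = 4 each, exact permutation p = 0.143, adjusted 0.214). *Dlx6os1* to *Dlx6* was 1.93 ± 0.190 and 1.98 ± 0.164 (exact permutation p = 0.714, adjusted 0.714). The summed 4 *Dlx* factors to the summed *Gad* genes gave 1.55 ± 0.103 and 1.62 ± 0.0805 (exact permutation p = 0.343, adjusted 0.411). With any brain left out, the differences in *Gad1* to *Gad2*, *Slc32a1* to *Gad* and *Dlx5* to *Dlx6* lay between -0.29 and -0.24, -0.29 and -0.20, and -0.30 and -0.21 on the log2 scale. Since the diets did not overlap in these 3 ratios, leaving out a brain could not have turned their sign.

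**Figure D3:**
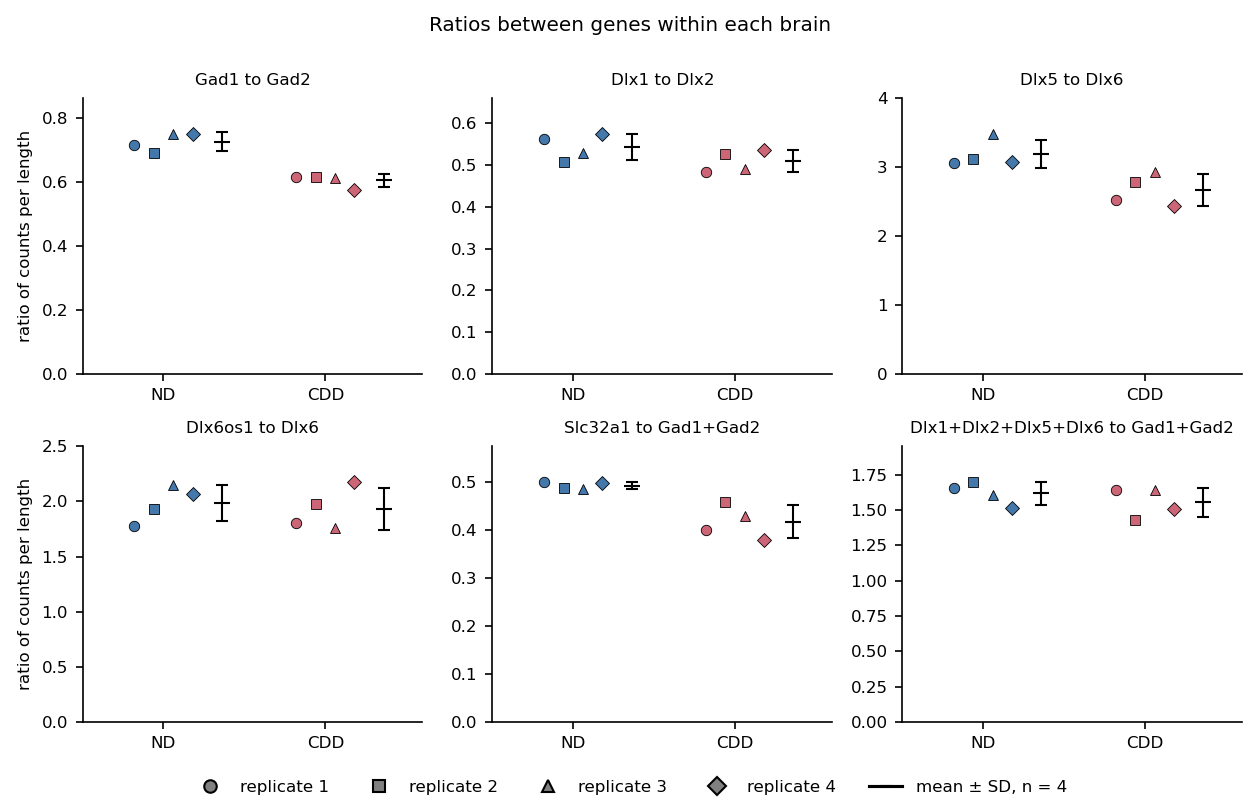
The 6 ratios of counts per length (vertical axes, starting at 0) in each ND and CDD brain, with a symbol per replicate number and the mean ± SD of each diet. The diets are separate for Gad1 to Gad2, Dlx5 to Dlx6 and Slc32a1 to Gad1+Gad2, with CDD below ND in each.

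Levels of different genes were set side by side as FPKM, the deposited value per gene length. On ND the order ran from *Dlx2* at 31.1 ± 2.16 FPKM through *Gad2* at 24.1 ± 0.295, *Slc32a1* at 20.5 ± 0.417, *Gad1* at 17.5 ± 0.516, *Dlx1* at 16.9 ± 0.438, *Nkx2-1* at 16.2 ± 1.00 and *Dlx5* at 14.8 ± 0.830 to *Dlx6os1* at 9.19 ± 0.198, *Dlx6* at 4.66 ± 0.419 and *Gsx2* at 2.53 ± 0.135 FPKM (SD, n = 4 each). The ranges of the neighbours *Gad1* and *Dlx1*, *Dlx1* and *Nkx2-1*, and *Nkx2-1* and *Dlx5* overlapped, and those of the other neighbours did not. On CDD, *Nkx2-1* at 19.1 ± 1.36 FPKM stood ahead of *Slc32a1* at 18.0 ± 0.799, *Dlx1* at 16.6 ± 1.48 and *Gad1* at 16.3 ± 0.647 FPKM. Each of these overlapped with the next, and so did *Dlx2* at 32.6 ± 3.03 and *Gad2* at 27.0 ± 1.90 FPKM. The lower end was ordered as on ND, with *Dlx5* at 13.2 ± 1.57, *Dlx6os1* at 9.60 ± 1.38, *Dlx6* at 4.98 ± 0.617 and *Gsx2* at 3.07 ± 0.234 FPKM. Per gene length, both members of a pair thus differed in level on either diet, *Dlx2* above *Dlx1* and *Dlx5* above *Dlx6*. For *Dlx1* and *Dlx2* this order rests on the listed lengths of 5396 and 2855 bases. In CPM, which is not divided by length, their means were close, at 91.5 and 89.3 on ND and 89.7 and 93.3 on CDD.

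Brains of one diet were then compared with each other. In CDD replicate 2, 9 of the 10 were at their lowest among the CDD brains, all but *Slc32a1*, beside 21.7% of tested genes. Of these, *Dlx1*, *Dlx2*, *Dlx5*, *Dlx6*, *Dlx6os1* and *Gad1*, 6 in all, were at their lowest of all 8 brains there, beside 11.6% of tested genes. That brain was the one with caudal *Hox* RNA, and the part of that RNA in these low values was not tested. The mean of the 10 genes' log2 CPM, each centred on its own mean, was 0.04, -0.13, 0.07 and 0.08 in CDD replicates 1 to 4 and 0.01, 0.00, -0.03 and -0.05 in ND replicates 1 to 4. After the diet means were taken off, 37 of the 45 gene pairs had a positive Pearson correlation over the 8 brains, with a median of 0.50. These values share library and scaling and carry no test. They include CDD replicate 2, where 9 of the 10 were at their lowest on CDD, and were not taken without it. *Dlx1* and *Gad2* (0.95), *Dlx6os1* and *Gad2* (0.89) and *Dlx2* and *Nkx2-1* (0.87) were the closest pairs. *Slc32a1* ran against *Dlx6os1* (-0.62) and *Dlx2* (-0.61).

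**Figure D4:**
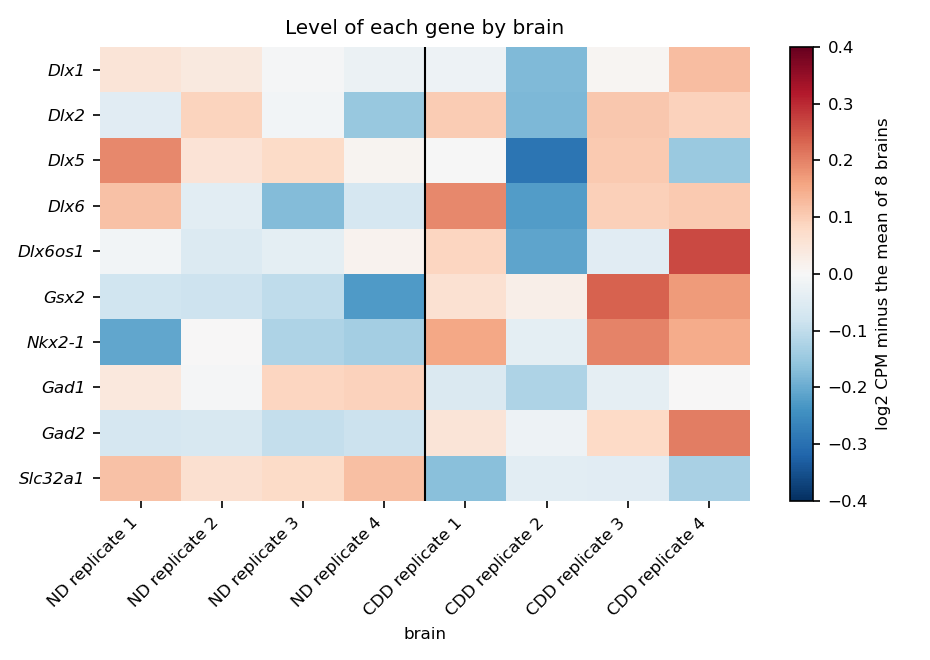
Log2 CPM of each gene (rows) minus its mean over the 8 brains (colour), by brain (columns, ND left of the line, CDD right). CDD replicate 2 shows the low values of most Dlx genes, the row of Gsx2 goes from blue to red at the line, and that of Slc32a1 from red to blue.

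Outside the 10, the genes whose levels over the 8 brains were most like their mean were *C230013L11Rik* (Pearson r = 0.98), *Vax1* (0.95), *Gm26628* (0.94), *Ctdsp2* (0.93) and *Adam21* (0.93), out of 15878 genes whose mean reached 1 CPM. *Vax1* is a homeobox gene of the ventral forebrain. These are descriptions over 8 brains, CDD replicate 2 among them, ranked among many genes.

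Other transcription factors of the ventral forebrain and of GABAergic neurons moved in both directions. Of 38 tested, 7 rose and 4 fell (median log2 fold change 0.05, beside -0.00 for all tested genes). Beside this and the list counts below stand 4.24% of all tested genes called higher and 4.59% called lower (edgeR). Beside the counts at an unadjusted p under 0.05 stand 4627 of the 19367 tested genes. The 11 called became 6 and 7 without CDD replicate 1 and 2, 4 without ND replicate 1, and 2 without ND replicate 3 or 4. *Sox6*, expressed in medial eminence interneurons, rose from 87.3 ± 3.77 to 107 ± 13.0 CPM (log2 fold change 0.30, edgeR adjusted p = 0.0172). *Nkx6-2*, *Gbx2* and *Ebf1*, which mark parts of the eminences or striatum among other regions, rose by 0.81, 0.45 and 0.24 on the log2 scale. The latter pair was no longer called without CDD replicate 2 (edgeR adjusted p = 0.0814 for *Gbx2* and 0.0836 for *Ebf1*).

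*Olig1*, a factor of ventral progenitors and the oligodendrocyte lineage, fell from 34.7 ± 2.66 to 24.6 ± 3.42 CPM (log2 fold change -0.50, edgeR adjusted p = 0.00287). *Ikzf1* fell by 0.43 and *Npas1*, a factor of interneurons and pallidal neurons, by 0.34 on the log2 scale, and the latter was not called without CDD replicate 2 (edgeR adjusted p = 0.0789). The LIM homeobox genes of the *Nkx2-1* territory, named in addition after their values were seen, split. *Lhx6*, which acts in migrating interneurons, fell from 70.4 ± 2.93 to 60.2 ± 6.86 CPM (edgeR adjusted p = 0.0473), a call lost without CDD replicate 2 (log2 fold change -0.15, edgeR adjusted p = 0.0981), whereas *Lhx8*, which acts in cholinergic neurons, rose from 11.9 ± 0.856 to 14.47 ± 1.29 CPM (edgeR adjusted p = 0.0378). *Nr2f1*, a nuclear receptor of the caudal eminence and cortex also named afterwards, rose from 290.0 ± 5.73 to 322 ± 10.6 CPM (edgeR adjusted p = 0.0401). Without CDD replicate 2, *Lhx8* and *Nr2f1* were still called (edgeR adjusted p of 0.0205 and 0.0353). With each of the 8 brains left out in turn, *Lhx6* and *Nr2f1* were called in 2 fits and *Lhx8* in 3. *Bcl11b*, the gene of the list with the highest FPKM among those that did not pass, measured 328 ± 27.3 CPM on CDD and 322 ± 5.26 CPM on ND.

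Genes of interneuron and striatal subtypes and of their migration had 0 rises and 5 falls among 26 tested (edgeR), with 17 below 0 and a median log2 fold change of -0.09. At an unadjusted p under 0.05 there were 0 rises and 12 falls, DESeq2 called 5 genes, and edgeR called 3 without ND replicate 1 or 3. The neuropeptide gene *Sst* fell from 52.6 ± 3.64 to 40.3 ± 5.36 CPM (log2 fold change -0.38, edgeR adjusted p = 0.0136), and *Cck* fell from 7.65 ± 1.02 to 5.75 ± 0.323 CPM (-0.41, edgeR adjusted p = 0.0237). *Calb2*, which encodes calretinin, fell from 32.3 ± 2.88 to 25.8 ± 1.76 CPM (-0.32, edgeR adjusted p = 0.00821). *Nos1*, the neuronal nitric oxide synthase, fell from 54.6 ± 2.57 to 41.9 ± 6.53 CPM (-0.38, edgeR adjusted p = 0.0240). *Adora2a*, a receptor of striatal projection neurons, fell from 11.6 ± 1.18 to 8.36 ± 0.280 CPM (-0.47, edgeR adjusted p = 0.00366). These 5 genes stayed called without CDD replicate 2, *Nos1* narrowly (edgeR adjusted p = 0.0499). Of the 8 fits that left out a brain, *Sst*, *Calb2* and *Adora2a* were called in 8, *Cck* in 6 and *Nos1* in 4. *Robo1*, a guidance receptor with the highest FPKM among those of the list that did not pass, measured 308 ± 28.8 and 302 ± 7.29 CPM.

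Of 7 genes for GABA uptake and breakdown, 1 fell and 0 rose (edgeR, median log2 fold change -0.12), with 2 falls and 0 rises at an unadjusted p under 0.05. DESeq2 called 1, and edgeR called 2 without CDD replicate 2 or 3. The gene gained without CDD replicate 2 was *Slc6a11*, named after its values were seen. Its log2 fold change was -0.48 with all brains (edgeR adjusted p = 0.292) and -0.74 without that brain (edgeR adjusted p = 0.00197). *Slc6a13*, the transporter GAT2, which in the brain is chiefly found in the meninges, fell from 21.6 ± 2.78 to 14.55 ± 1.12 CPM (-0.57, edgeR adjusted p = 0.00128). Summed markers of meningeal fibroblasts ran from 275 to 302 CPM on CDD and from 290 to 351 CPM on ND, and their part in that value was not tested.

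Lists of genes from other neurons, 3 in all, were set beside these. Among 14 pallial and glutamatergic genes, 2 rose and 3 fell (median log2 fold change 0.09), in all 3 called without CDD replicate 1, CDD replicate 4, ND replicate 1 or ND replicate 4 and 2 without ND replicate 3. *Neurog2*, the proneural factor of cortical progenitors, rose from 103 ± 8.62 to 128 ± 9.24 CPM and *Emx2* from 23.4 ± 0.999 to 28.0 ± 3.497 CPM. Of the 8 fits that left out a brain, *Neurog2* was called in 8 and *Emx2* (edgeR adjusted p = 0.0433 with all brains) in 2. *Bhlhe22* and *Neurod2*, which act in cortical neurons after their last division, fell by 0.37 and 0.20 on the log2 scale, and *Neurod2* was not called without CDD replicate 2 (edgeR adjusted p = 0.110). *Neurod6* did not pass (-0.10, edgeR adjusted p = 0.254).

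Among 11 genes of inhibitory neurons of the midbrain, hindbrain and spinal cord, 3 rose and 0 fell (edgeR, median 0.29), with 5 rises and 0 falls at an unadjusted p under 0.05. DESeq2 called 3, and edgeR called 1 without ND replicate 1 or 3. *Tal2*, which acts in midbrain GABAergic neurons, rose from 10.3 ± 1.44 to 15.5 ± 1.65 CPM (edgeR adjusted p = 0.00287), *Lhx1* from 49.1 ± 2.14 to 60.1 ± 7.14 CPM and *Tal1* from 32.9 ± 1.87 to 38.3 ± 1.84 CPM. *Tal1* was not called without CDD replicate 2 (edgeR adjusted p = 0.0727), and *Lhx5* did not pass (0.11, edgeR adjusted p = 0.442). The list summed to 279 CPM in CDD replicate 2, to 202 to 216 CPM in the other CDD brains and to 181 to 200.1 CPM in ND brains. Its median of 0.29 includes that brain. *Pax2*, *Pax8* and *Slc6a5*, named after their values were seen and not called, had log2 fold changes of 1.00, 1.14 and 1.32. Without CDD replicate 2 these were -0.26, 0.26 and -0.13, whereas *Tal2* and *Lhx1* stayed called at 0.55 and 0.21. Of 9 hypothalamic genes, 2 rose and 0 fell (edgeR, median 0.20), with 4 rises and 0 falls at an unadjusted p under 0.05. DESeq2 called 2, and edgeR called 1 without CDD replicate 1, 2 or 4 or ND replicate 2 and 0 without ND replicate 1, 3 or 4. These were *Otp*, with a log2 fold change of 0.25 that was not called without CDD replicate 2 (edgeR adjusted p = 0.0736), and *Sim1* with 0.46, whereas *Fezf1* did not pass (0.20, edgeR adjusted p = 0.143). That list summed to 60.0 to 70.4 CPM on CDD and 52.0 to 57.1 CPM on ND. Since *Gad1*, *Gad2* and *Slc32a1* are also used by caudal inhibitory neurons and *Nkx2-1* by the hypothalamus, these sums belong beside their values, and their part in them was not tested.

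**Figure D5:**
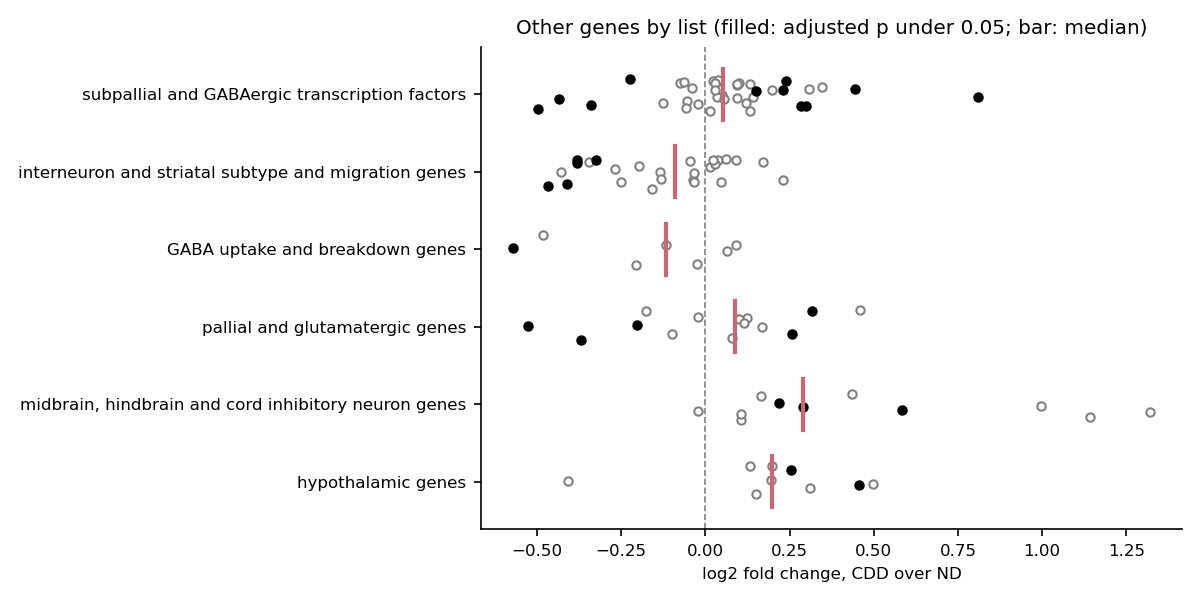
Log2 fold change of CDD over ND (horizontal axis) of every tested gene in 6 lists (rows), filled where the edgeR adjusted p was under 0.05, with the list's median as a bar. Filled points lie on both sides of 0 for the subpallial factors and the pallial genes, below 0 for the subtype and uptake lists, and above 0 for the caudal inhibitory and hypothalamic lists.

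Of the other cell types the dissection could hold, erythroid markers summed to 143 to 254 CPM on CDD and 51.8 to 114 CPM on ND, with no overlap. Of these 6, 2 rose, the embryonic globins *Hbb-y* and *Hba-x*, and in all 4 lay above 0 and 2 below. *Hbb-y* had 3823 to 6512 counts in CDD brains and 904 to 1189 in ND brains. *Alas2*, which was not called, had 493 to 935 and 443 to 1956, so the sum does not stand for all 6 genes. Of 9 progenitor markers 4 rose (*Nes*, *Vim*, *Mki67* and *Top2a*), and of 9 neuron markers 1 fell (*Snap25*). Of 6 meningeal markers *Lum* rose and *Col1a1* and *Col1a2* fell, and of 6 endothelial markers, which summed to 221 to 235 CPM on CDD and 233 to 249 CPM on ND, *Cldn5* fell. These markers are named after their values were seen, and without CDD replicate 2 the call of *Lum* was lost (edgeR adjusted p = 0.0882). Craniofacial mesenchyme (32.6 to 33.9 against 27.9 to 33.3 CPM), choroid plexus (182 to 492 against 281 to 325 CPM) and microglial markers (45.5 to 50.8 against 49.8 to 57.1 CPM) overlapped between the diets, with 0 called in each list (edgeR) and 0, 2 and 3 genes in turn at an unadjusted p under 0.05. Their part in the values of the 10 genes was not tested.

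Some of the counts belong to overlapping genes, and whether the counting used strand is not given in the sources used here. In the authors' positions *Dlx6* lies entirely inside *Dlx6os1* on the other strand. In GENCODE M21, the 2 share 0 bases of exon. However, *Dlx6os1* has 5173 bases of exon there and a length of 8069 in the authors' table. Whether the rest of its counted length overlaps exons of *Dlx6* was therefore not checked. *Dlx6* shares 104 bases (4.38%) with the antisense gene *Dlx6os2*, which had 15 to 30 counts in a brain. *Slc32a1* shares 697 bases (24.9%) of its exons with the antisense gene *Gm14205*, which had 0 to 6 counts in a brain. *Dlx1* shares 335 bases (6.21%) with *Dlx1as*, which had 854 to 1560 counts, so reads of these stretches cannot be told apart without strand.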

How the data were processed

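Whole E14.5 brains (4 CDD, 4 ND, grouped by the labels) were profiled by bulk sequencing of poly-A selected RNA. The authors deposited raw counts per gene and brain, which were used here, and FPKM values per gene length. The submitters' processing notes name HISAT2 2.0.5, featureCounts 1.5.0-p3 and DESeq2 1.20.0. The genome build and the strand setting are not given in the sources used here, and 2 of the 10 genes have the same start in GENCODE M21. A deposited size-factor-scaled signal, the authors' own fold changes and p-values, and shorter extracts of the table were not used.

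Counts (31770217 to 43121170 per brain, which limits precision for low genes such as *Gsx2*) were filtered by filterByExpr, TMM-scaled and fitted with the robust quasi-likelihood model of edgeR 4.0.16, diet being the only term, with Benjamini-Hochberg adjustment over 19367 genes and a threshold of 0.05. Ratios of counts per length were compared by exact two-sided permutation. Scripts were tested on simulated data. The 10 genes and all lists were chosen with earlier results of these data known. All 10 genes are named, and from each pathway or comparison list the called genes (at most 8, by p) and the gene of highest mean FPKM not called. The 5 genes most like the mean of the 10 are named too. Some genes this rule selects are not reported here.

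Alternatives were DESeq2 1.42.0, RLE and upper-quartile scaling, limma-voom (limma 3.58.1), no filter, at least 10 counts in every brain, a replicate block, *Xist* as covariate, log2(FPKM + 1) and log2(FPKM + 0.1) with limma, a threshold of 0.01, and each brain left out. R 4.3.3, Python 3.11.15, pandas 2.3.3, SciPy 1.17.1 and matplotlib 3.10.9 were used. Promoter windows came from RefSeq (GRCm38.p6).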

Additional observations from a re-analysis of the deposited data

Results flagged for a closer look

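In groups of 4 brains, a brain was picked out where its gap to the nearest other divided by the group's range exceeded Dixon's 95% critical value. This was tried on 70 groups, and 8 were picked out, where chance gives about 3.5. Among the 10 genes, *Dlx2* measured 80.4 CPM in CDD replicate 2 and 97.2 to 98.2 CPM in the other CDD brains. *Gsx2* measured 3.91 CPM in ND replicate 4 and 4.31 to 4.39 CPM in the other ND brains.

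The log2 ratio of *Gad1* to *Gad2* was -0.80 in CDD replicate 4 and -0.71 to -0.70 in the other CDD brains, further from the ND brains than the rest. The log2 ratio of *Dlx5* to *Dlx6* was 1.80 in ND replicate 3 and 1.61 to 1.64 in the other ND brains.

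Among the marker sums, the caudal hindbrain and spinal cord genes reached 91.9 CPM in CDD replicate 2 (0 to 0.392 CPM in the other CDD brains) and 0.176 CPM in ND replicate 1 (0.0289 to 0.0313 CPM in the other ND brains). Craniofacial mesenchyme and bone markers summed to 27.9 CPM in ND replicate 2 (32.8 to 33.3 CPM in the others), and pituitary markers to 0.925 CPM in ND replicate 3 (1.28 to 1.32 CPM in the others).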

How the results depend on the processing

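Of the 10 genes, the 3 called were also called with DESeq2, RLE or upper-quartile scaling, no filter, at least 10 counts in every brain or *Xist* as covariate. With limma-voom 1 was called higher, *Nkx2-1*, and *Slc32a1* stayed called as lower. With FPKM at a pseudocount of 1 or 0.1, 0 were called, 0 higher and 0 lower (limma, where 16 and 23 of all genes were called), and at an adjusted p under 0.01 (edgeR) also 0. Leaving out each brain gave 0 to 4 called, 0 to 2 higher and 0 to 2 lower, with 0 called without ND replicate 1, 3 or 4, where 688, 471 and 615 genes of the whole table were called in place of 1710. *Nkx2-1* was called in 13, *Slc32a1* in 12 and *Gad2* in 9 of 18 other fits at the 0.05 threshold.

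Directions turned for *Dlx1* (-0.078 to 0.024 over the brains left out, above 0 without CDD replicate 2), for *Dlx6os1* (-0.030 to 0.13), *Bcl11b* (-0.020 to 0.067) and *Robo1* (-0.038 to 0.074), all below 0 without CDD replicate 4, and for the log2 ratio of *Dlx6os1* to *Dlx6* (-0.10 to 0.00179, above 0 without CDD replicate 3, and 0.00046 without ND replicate 3), none of them called. The cause was not tested. List counts ranged over the brains left out from 2 to 13 for the ventral forebrain factors, 3 to 6 for subtype and migration genes, 1 to 2 for GABA uptake, 2 to 5 for pallial genes, 1 to 3 for caudal inhibitory genes and 0 to 2 for hypothalamic genes. Of 24 named list genes that were called, 8 stayed called in every such fit.

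With the replicate number as a block, 3 of the 10 were called and 1812 genes in all, in place of 1710. Same-numbered brains correlated at 0.13, -0.18, 0.14 and 0.27 in their deviations, and 3 of 4 numbers matched their own number best. The correlation below 0 was that of number 2, which includes the CDD brain with caudal *Hox* RNA, so these values do not settle whether the numbers are pairs. The labels do not name pairs, and the numbers were not taken as pairs in the main fit. Depth limited *Gsx2* (135 to 240 counts) and left *Dlx3* and *Dlx4* untested.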
